A study of Mus musculus with 6 samples.

Results

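The glutathione, glucuronide and sulfate transferases are enzymes that attach a polar group to drugs, bile pigments, hormones and reactive lipids. Their genes were taken as all rows whose symbol begins with Gsta, Gstm, Gstp, Gstt, Gsto, Gstz, Gstk, Mgst or Sult and a digit, or with Ugt1 or Ugt2. This gave 49 of the 18159 genes measured, made up of 22 soluble glutathione S-transferases (GST), 3 microsomal ones (MGST), 16 UDP-glucuronosyltransferases (UGT) and 8 sulfotransferases (SULT). The rule uses the symbols only, but earlier results of these data were known when it was chosen. RNA of intestinal epithelial cells was sequenced from Git2-knockout mice (3 libraries) and from wild-type mice (3 libraries), and the study's title names Git2 deficiency and necrotizing enterocolitis, a severe intestinal inflammation of the newborn. The sample titles say Git2-knockout, but their genotype entry reads knockdown. The design text describes enteroids, which are epithelial organoids, and an age of 12 days in both groups. Neither the Git2 allele nor the strain is stated in the sources used here, nor whether replicate libraries stem from different animals or cultures. The p-values below therefore cover only the spread among these 6 libraries, which may be technical.

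GSTs couple glutathione, a sulfur-containing tripeptide, to electrophiles such as oxidized lipids and carcinogens, and the microsomal members do so at membranes. UGTs of the endoplasmic reticulum transfer glucuronic acid from UDP-glucuronate to bilirubin, steroids and plant compounds. SULTs transfer sulfate from the donor PAPS to phenols, steroids and neurotransmitters. The intestinal epithelium expresses all of these groups, where they meet swallowed compounds first, and textbook inducers of their genes include the antioxidant regulator Nrf2 (gene Nfe2l2), the xenobiotic receptors PXR (Nr1i2) and CAR (Nr1i3), and the aryl hydrocarbon receptor (Ahr).

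The libraries held 16284414 to 16837158 estimated counts in the Git2-knockout group and 18753649 to 19106581 in wild-type. Git2 itself was at 17.4, 15.5 and 16.8 CPM in the Git2-knockout libraries, against 22.2, 23.7 and 22.7 CPM in wild-type (log2 fold change -0.47, SE 0.07, edgeR adjusted p = 4.44e-05). CPM are counts per 1000000 counts of a library, scaled by TMM. This partial reduction does not check the genotype, since a targeted gene can still be transcribed, and directions below are those of the libraries so labelled. Replicate 1 of the Git2-knockout group stood apart from the other 2, with chi-square statistics per degree of freedom of 6.79 and 5.05, where the other pairs within groups gave 1.59 to 2.77. Absorptive enterocyte markers summed to 37270 to 39330 CPM in the Git2-knockout libraries, against 47920 to 49040 CPM in wild-type, and 16 of 23 fell while 4 rose. Most of the gap between these sums came from Apoa4, with means of 10170 CPM in Git2-knockout and 15350 CPM in wild-type, and Apoa1, with 4659 and 8057 CPM. The 4 that rose were Apob, Sis, Enpep and Mgam. Epithelial markers summed to 7464 to 7842 CPM in Git2-knockout, against 8399 to 8790 CPM in wild-type, with 6 of 8 falling. Of fibroblast and smooth muscle markers 11 of 12 tested rose, with a sum of 139.7 to 145.7 CPM in the Git2-knockout libraries and 47.6 to 53.6 CPM in wild-type. All 10 endothelial markers rose as well, to a sum of 61.3 to 72.1 CPM in Git2-knockout libraries, against 30.3 to 31.8 CPM in wild-type. Erythroid markers summed to 73.8 to 84.3 CPM in the Git2-knockout libraries and 22.8 to 24.5 CPM in wild-type, with 4 of 5 tested rising. Among crypt and secretory markers 6 of 12 fell and 2 rose, among leukocyte markers 4 of 9 fell and 2 rose, and among hepatocyte markers 1 of 5 fell and 1 rose. Among all genes tested, 27.4% fell and 29.6% rose. These directions depended in part on the scaling. With trends on transcript length and GC content removed, crypt and secretory markers had 4 falls and 6 rises, and epithelial markers 3 and 3. Absorptive enterocyte markers then had 19 falls and 1 rise, and fibroblast and smooth muscle markers 0 and 12. No marker on these lists was at 0 in all libraries. The part of these shifts in the transferase values was not tested.

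Gstp1 and Gstp2, Gsta1 and Gsta2, and the Ugt1a genes share long stretches of sequence, which bears on how reads can be assigned to them. The reading frames of Gstp1 and Gstp2 were 98.1% identical, with 12 differences, and 6 of these fall in the first 60 bases. Those bases are shown because no other stretch of 60 bases holds more differences, so the rest of the reading frames is more alike. They run 5′ to 3′ and are from the GENCODE transcripts of GRCm38 (both genes on chromosome 19), with the differing positions in capitals.

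Gstp1: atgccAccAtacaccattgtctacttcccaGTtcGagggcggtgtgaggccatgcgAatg

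Gstp2: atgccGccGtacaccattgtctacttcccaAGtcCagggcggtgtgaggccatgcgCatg

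Of all stretches of 50 bases in their transcripts, 33.7% of those of Gstp1 and 49.1% of those of Gstp2 occur in the other gene, whereas Gstp3 shared none. For Gsta1 and Gsta2 the shares were 46.6% and 36.0%. The 9 Ugt1a genes use common last exons and shared 52.1% to 79.8%. Estimates for the single genes of these 3 sets are therefore uncertain, and their sums are given beside them. Gstm3 shared 15.8%, Gstm1 8.9% and Gstm6 3.5% with other members, and Gstm2 0.7%.

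The start regions of the 3 pi genes are shown because Gstp1 and Gstp2 were called lower and their neighbour Gstp3 was not, and that of Gstm3 because it had the largest fall. Each is the RefSeq window of 300 bases, from 250 before the transcript start to 50 after it, build GRCm38.p6, minus strand. Capitals mark the letters TGAGTCAGC, which contain the AP-1 core TGAGTCA, and which were chosen after the sequences had been seen.

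Gstp1 (chr19:4037863-4038162): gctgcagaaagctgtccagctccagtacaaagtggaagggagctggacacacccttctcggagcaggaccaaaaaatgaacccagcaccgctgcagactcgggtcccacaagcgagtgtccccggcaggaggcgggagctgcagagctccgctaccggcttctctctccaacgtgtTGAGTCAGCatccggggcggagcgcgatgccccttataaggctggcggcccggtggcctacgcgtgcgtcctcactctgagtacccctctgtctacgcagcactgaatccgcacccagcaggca

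Gstp2 (chr19:4042172-4042471): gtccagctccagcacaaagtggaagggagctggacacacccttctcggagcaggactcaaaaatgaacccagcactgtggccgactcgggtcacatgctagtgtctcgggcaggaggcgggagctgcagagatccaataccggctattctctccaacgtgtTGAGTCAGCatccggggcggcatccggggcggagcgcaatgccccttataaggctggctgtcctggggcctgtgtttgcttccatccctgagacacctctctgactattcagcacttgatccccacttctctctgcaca

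Gstp3 (chr19:4059398-4059697): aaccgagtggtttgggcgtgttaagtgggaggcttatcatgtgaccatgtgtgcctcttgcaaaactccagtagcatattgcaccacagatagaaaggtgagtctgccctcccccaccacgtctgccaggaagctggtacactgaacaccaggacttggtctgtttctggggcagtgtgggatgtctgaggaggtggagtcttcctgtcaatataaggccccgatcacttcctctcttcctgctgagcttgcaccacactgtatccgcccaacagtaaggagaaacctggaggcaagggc

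Gstm3 (chr3:107969125-107969424): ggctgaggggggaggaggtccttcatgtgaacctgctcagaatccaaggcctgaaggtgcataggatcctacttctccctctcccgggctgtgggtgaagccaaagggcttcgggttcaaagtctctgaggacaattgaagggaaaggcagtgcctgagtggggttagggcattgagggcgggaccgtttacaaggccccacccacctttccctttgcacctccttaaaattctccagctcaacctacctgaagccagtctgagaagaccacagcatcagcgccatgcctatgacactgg

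The windows of Gstp1 and Gstp2 were 76.4% identical, and each held TGAGTCAGC, Gstp1 at -74 and Gstp2 at -89 from the start. Identity to the Gstp3 window was 48.3% for Gstp1 and 43.6% for Gstp2. Searched on both strands, these letters were in 2 of the 45 transferases with a window (4.44%), both of them pi genes, and in 0.481% of the 27025 genes of the promoter table. As the letters were chosen with the windows in view, these shares are no test of enrichment. The core of the antioxidant response element, TGACNNNGC, was in the windows of Gsta3, Gstm5, Gstm7 and Mgst1, 4 of 45 (8.89%), where 14% of all genes held it. Only this spelling was searched for, so the other windows may hold related forms of the element. The letters TGAGTCAGC in the Gstp1 and Gstp2 windows differ from that spelling only in having TGAG in place of TGAC. No transferase held both motifs. A match is a run of letters and was not taken as a binding site.

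Many soluble and microsomal GST genes were lower in the Git2-knockout libraries, most of all Gstm3, Gstp1, Gstm2, Gsta4 and Gstp2, and the sulfotransferase Sult1d1 was higher. By class, 13 of 21 soluble GSTs tested fell, as did 2 of 3 MGSTs and 2 of 10 UGTs, while 1 UGT and 1 of 6 SULTs rose, counts that were not the same with the length and GC trends removed. Of the 49 genes 40 had enough reads to be tested, and 17 fell (42.5%), 2 rose (5%) and 21 were not called by edgeR's quasi-likelihood test at a Benjamini-Hochberg adjusted p of 0.05 over all genes. Among all 13558 genes tested, 57% were called, 29.6% upward and 27.4% downward. The members' share of rises was thus below and their share of falls above that of all genes, and their median log2 fold change was -0.16, where the median of all genes was 0.02. In bulk RNA, fewer enterocytes in a sample and less RNA of a gene per enterocyte cannot be told apart, and the 23 absorptive enterocyte markers had a median log2 fold change of -0.23. In 24 members the groups were fully separate, 3 higher and 21 lower in Git2-knockout. Among all genes tested, 62.9% were separate in this way, 32.3% higher and 30.6% lower. Without Git2-knockout replicate 1, 20 members fell and 2 rose.

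**Figure D1:**
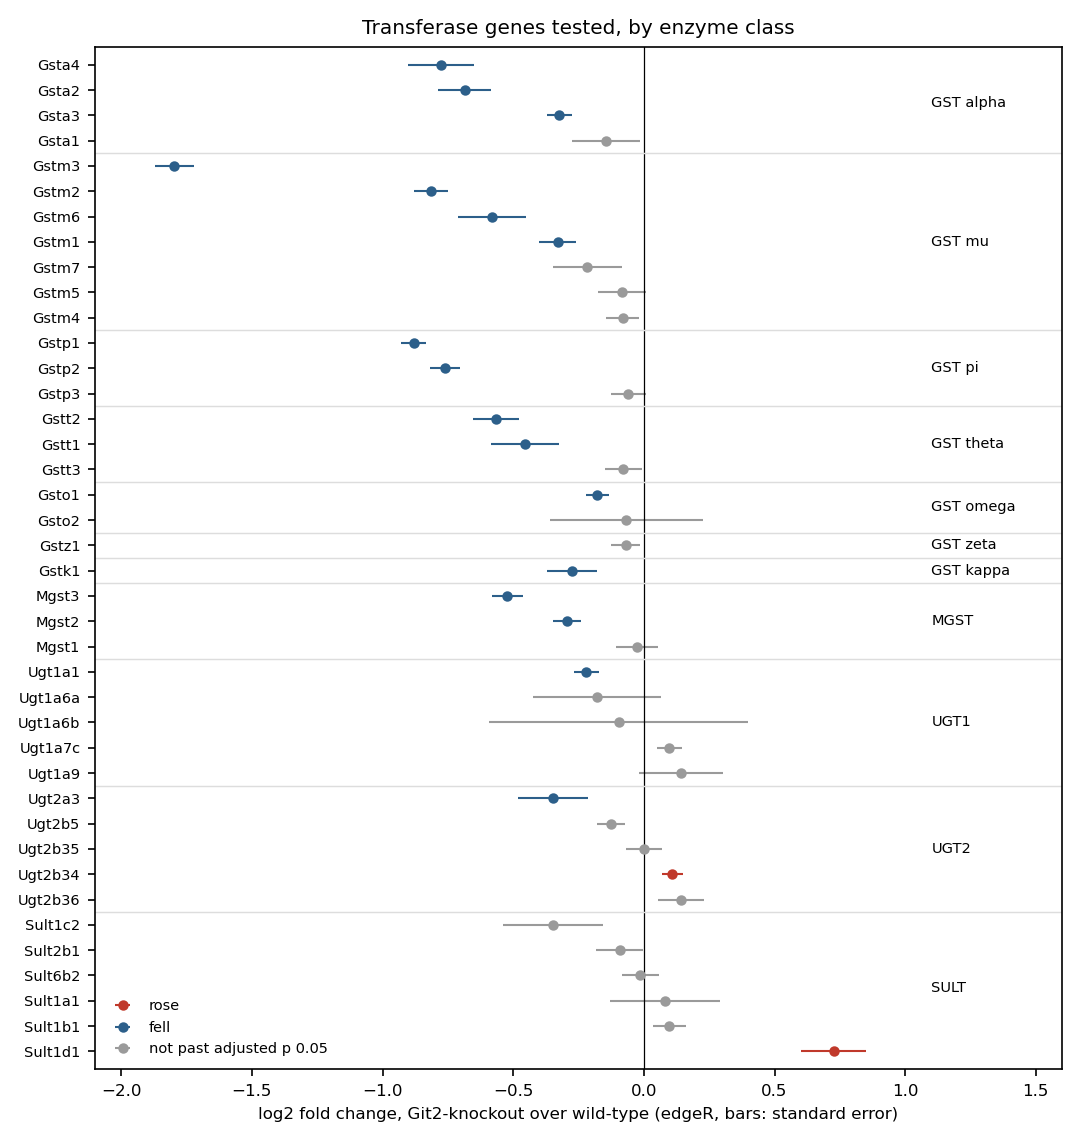
Log2 fold change, Git2-knockout over wild-type, of the 40 tested transferases by class (points, with bars of 1 SE from edgeR, 3 libraries per group), coloured where the gene was called and grey where it was not. All 21 soluble GST points lie below 0, with Gstm3 lowest at -1.80, and Sult1d1 at 0.73 is the highest point.

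Counts and single values moved with the scaling. On log2(TPM + 1), where TPM are the deposited transcript shares scaled to 1000000 per library, the median of all genes lay at 0.14, and limma-trend called 13 of the 40 members as falling and 5 as rising, where 13.9% of all genes fell and 42.4% rose. With the trend on transcript length removed, 11 members fell (27.5%) and 6 rose (15%), where 25.9% of all genes fell and 27.2% rose, so the members' share of falls was then near that of all genes. With trends on length and GC content removed, 15 members fell (37.5%) and 7 rose (17.5%), where 20.9% of all genes fell and 21.8% rose. On that scale 8 soluble GSTs fell and 5 rose, with a median log2 fold change of -0.001, while 5 UGTs fell and 0 rose, and 1 SULT fell and 1 rose. The falls of Gsta2, Gsta3, Gsta4, Gstm2, Gstm3, Gstp1, Gstp2, Gstt2 and Mgst3 were called in the same direction under all 17 alternatives tried. For Gsta2, Gstp1 and Gstp2, the alternative with summed counts gives the call of the sum with the near-identical copy, not of the single gene. The alternative filter of at least 5 CPM in 3 libraries adds nothing for Gsta4, which passed it only through its wild-type libraries. The other 10 called members, both rises included, lost the call or turned in at least 1 alternative.

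Levels differed widely between the genes. On the TPM scale, which is per transcript length, Gsto1 was the most abundant transferase, with means of 703 TPM in Git2-knockout and 711 TPM in wild-type libraries. Gstp1 followed, with means of 380 TPM in Git2-knockout and 627 TPM in wild-type, and then Mgst1, with 401 TPM in Git2-knockout and 366 TPM in wild-type. Gstp2 averaged 219 TPM in Git2-knockout and 331 TPM in wild-type. Sult1d1 averaged 292 TPM in Git2-knockout and 158 TPM in wild-type, so the order of these genes by level was not the same in the groups. Summed over all members, transferases made up 3726, 3466 and 3546 TPM in the Git2-knockout libraries and 3812, 3873 and 3818 TPM in wild-type, a ratio of 0.933. Every Git2-knockout sum in TPM lay below every wild-type one. In CPM the sums overlapped, at 2453, 2173 and 2246 in Git2-knockout and 2447, 2486 and 2450.1 in wild-type.

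The class sums, given as values with no test, did not all lie on the same side. Soluble GSTs summed to 1956, 1878 and 1896 TPM in the Git2-knockout libraries, against 2347, 2400 and 2388 TPM in wild-type, which is 52.5% to 54.2% of all transferase TPM in Git2-knockout and 61.6% to 62.5% in wild-type. SULTs summed to 602, 511 and 520 TPM in Git2-knockout, against 386, 383 and 362 TPM in wild-type, or 14.7% to 16.2% of the whole in Git2-knockout and 9.5% to 10.1% in wild-type. Most of the SULT gap came from Sult1d1, with means of 292 TPM in Git2-knockout and 158 TPM in wild-type. Most of the soluble GST gap came from the pi class, with means of 686 TPM in Git2-knockout and 1039 TPM in wild-type. The UGT sum was 519, 517 and 516 TPM in Git2-knockout, against 466, 462 and 450 TPM in wild-type. MGST sums overlapped, at 649, 560 and 614 TPM in Git2-knockout and 614, 628 and 619 TPM in wild-type. In CPM the ratio of the class sums was 0.751 for soluble GSTs, 1.32 for SULTs, 1.01 for UGTs and 0.890 for MGSTs, so the higher UGT sum was seen per length only.

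**Figure D2:**
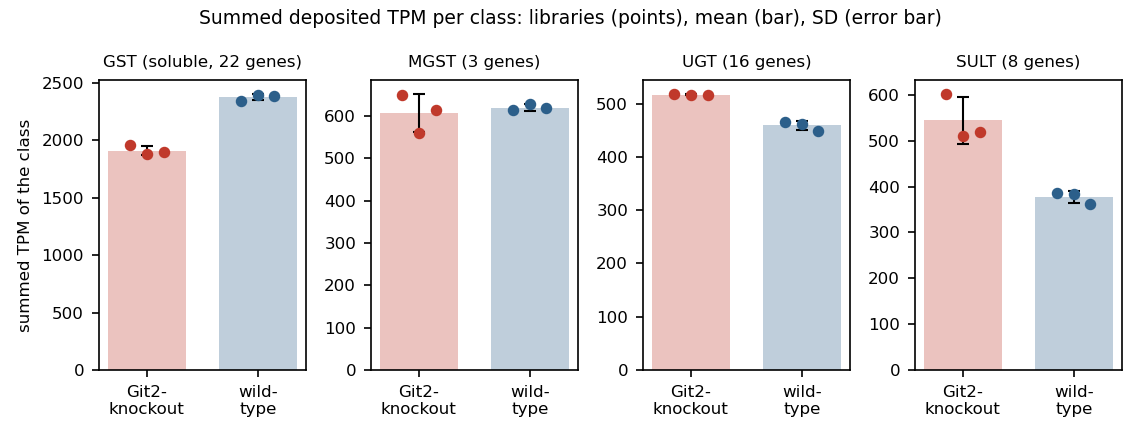
Summed deposited TPM of each transferase class in each of the 6 libraries (points; bars are means and error bars SDs of 3 libraries), Git2-knockout left of wild-type. The soluble GST sums are 1878 to 1956 TPM in Git2-knockout and 2347 to 2400 TPM in wild-type, and the SULT sums are 511 to 602 TPM in Git2-knockout and 362 to 386 TPM in wild-type.

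Pi class GSTs detoxify small electrophiles, and the human relative GSTP1 is often abundant in tumours. Gstp1 was at 125, 116 and 109.9 CPM in the Git2-knockout libraries, against 211, 218 and 217 CPM in wild-type, and fell by 0.88 on a log2 scale (SE 0.05, edgeR adjusted p = 6.57e-10). Gstp2 was at 65.4, 64.9 and 73.2 CPM in Git2-knockout, against 109, 114 and 122 CPM in wild-type, and fell by 0.76 (SE 0.06, adjusted p = 2.06e-08). In both genes every Git2-knockout library lay well below every wild-type one. Summed, the copies were at 190, 181 and 183 CPM in Git2-knockout, against 320.0, 332 and 339 CPM in wild-type, and fell by 0.84 (SE 0.04, adjusted p = 1.88e-10), a value between those of the single copies. Gstp3, which shares no stretch of 50 bases with them, was at 28.2, 27.2 and 25.9 CPM in Git2-knockout and 26.7, 30.6 and 27.6 CPM in wild-type, overlapping ranges with a log2 fold change of -0.06 (SE 0.07, adjusted p = 0.464). It was called higher once the length trend was removed (0.30) and with length and GC trends removed (0.44), where Gstp1 stood at -0.52 and -0.37 and Gstp2 at -0.40 and -0.28. Summed over the 3 genes, the pi class was at 681 to 688 TPM in Git2-knockout, against 1014 to 1052 TPM in wild-type, and made up 18.5% to 19.9% of transferase TPM in Git2-knockout and 26.6% to 27.6% in wild-type.

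Mu class GSTs act on epoxides and aromatic compounds. Of the 7 mu genes 4 fell, none rose and all log2 fold changes were below 0. Gstm3 was at 7.89, 7.79 and 8.07 CPM in the Git2-knockout libraries, against 27.4, 27.5 and 27.7 CPM in wild-type, and fell by 1.80 as a log2 fold change (SE 0.08, edgeR adjusted p = 2.29e-11), to 28.8% of wild-type. Its spread within groups was small, with SDs of 0.139 CPM in Git2-knockout and 0.184 CPM in wild-type, and the change was the largest of all transferases, between -1.83 and -1.47 under the 17 alternatives. Gstm2 was at 17.9, 17.0 and 17.3 CPM in Git2-knockout, against 30.5, 29.4 and 31.7 CPM in wild-type, and fell by 0.81 (SE 0.07, adjusted p = 4.45e-08). The less abundant Gstm6 was at 4.31, 3.46 and 4.06 CPM in Git2-knockout, against 6.19, 6.14 and 5.38 CPM in wild-type (log2 fold change -0.58, SE 0.13, adjusted p = 1.24e-03). Gstm1 was at 21.2, 18.5 and 20.8 CPM in Git2-knockout, against 25.0, 25.7 and 25.2 CPM in wild-type, and fell by 0.33 (SE 0.07, adjusted p = 7.67e-04). The calls of Gstm1 (-0.001, adjusted p = 0.993) and Gstm6 (-0.28, adjusted p = 0.0891) were lost with length and GC trends removed, and that of Gstm1 also with the length trend alone removed (-0.12). Gstm5, at 17.97, 15.2 and 15.2 CPM in Git2-knockout and 15.3, 18.3 and 17.7 CPM in wild-type, overlapped between the groups (log2 fold change -0.09, adjusted p = 0.452). It stood at 0.21 and was called higher with the length trend removed. Gstm7 (-0.22) and Gstm4 (-0.08) were not called, and Gstm4 was lower in all Git2-knockout libraries in CPM but higher in all of them in TPM, and called higher at 0.16 with length and GC trends removed.

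The position of the mu genes gives a further description. On chromosome 3 the genes follow each other as Gstm5, Gstm7, Gstm6, Gstm3, Gstm2, Gstm1 and Gstm4, with 0 other coding genes between them in the RefSeq table. The 4 that fell are the 4 adjacent middle ones, and the 3 that were not called lie on either side. The reading frames of Gstm2 and Gstm3 were 85.1% identical and those of Gstm2 and Gstm7 85.3%, while only Gstm2 and Gstm3 of these were called.

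**Figure D3:**
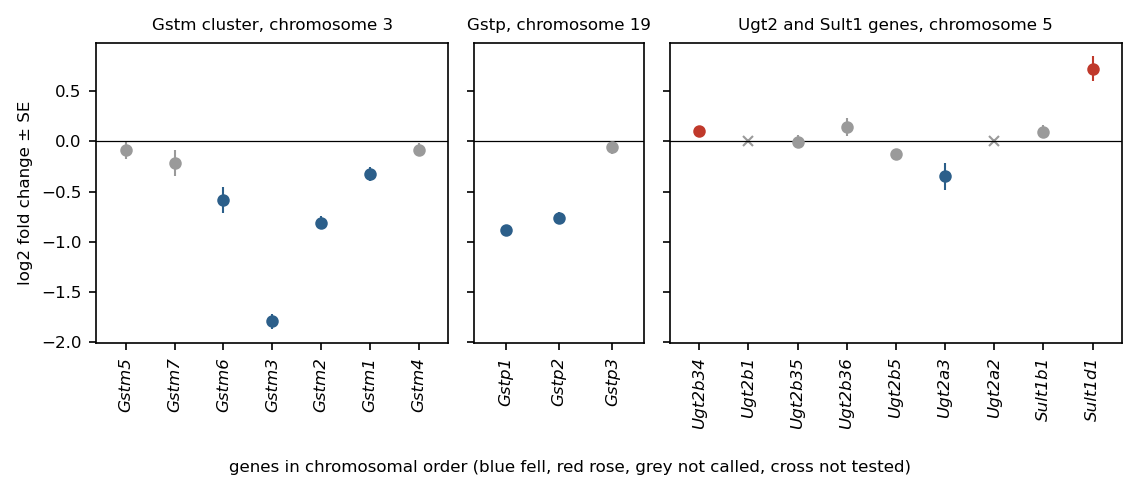
Log2 fold change (Git2-knockout over wild-type, bars of 1 SE, 3 libraries per group) of the tested members of gene clusters, in their order along the chromosome, evenly spaced, with members not tested marked by a cross on the zero line. Gstm6, Gstm3, Gstm2 and Gstm1 lie low and next to each other, at -0.58, -1.80, -0.81 and -0.33, and Gstp1, Gstp2 and Gstp3 are at -0.88, -0.76 and -0.06.

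Alpha class GSTs reduce lipid hydroperoxides and conjugate lipid aldehydes, and 3 of the 4 fell. Gsta3 was at 46.9, 46.7 and 46.2 CPM in the Git2-knockout libraries, against 58.3, 58.7 and 57.8 CPM in wild-type, and fell by 0.32 (SE 0.05, edgeR adjusted p = 3.22e-05). Gsta2 was at 23.6, 16.9 and 18.8 CPM in Git2-knockout, against 30.1, 31.3 and 33.9 CPM in wild-type, and fell by 0.69 (SE 0.10, adjusted p = 8.5e-05). Gsta4, which conjugates the lipid aldehyde 4-hydroxynonenal, was at 3.64, 3.34 and 3.47 CPM in Git2-knockout, against 6.08, 5.50 and 6.33 CPM in wild-type, and fell by 0.78 (SE 0.13, adjusted p = 7.54e-05). The groups of these 3 genes did not overlap, in CPM or in TPM. Gsta1 was at 13.4, 12.3 and 9.36 CPM in Git2-knockout and 14.9, 11.6 and 12.2 CPM in wild-type, with overlap and a log2 fold change of -0.15 (SE 0.13, adjusted p = 0.358). Because Gsta1 and Gsta2 share much of their sequence, their sum is the firmer value. It was 36.9, 29.2 and 28.1 CPM in Git2-knockout, against 45.0, 42.9 and 46.1 CPM in wild-type, and fell by 0.51 (adjusted p = 2.28e-04).

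Of the theta class, which handles small halogenated and sulfate-ester substrates, 2 of 3 tested genes fell. Gstt2 was at 17.2, 17.5 and 16.7 CPM in the Git2-knockout libraries, against 21.6, 26.3 and 28.1 CPM in wild-type, and fell by 0.57 (SE 0.09, edgeR adjusted p = 5.95e-05). Its wild-type libraries spread more than its Git2-knockout ones, but none overlapped. Gstt1 was at 5.77, 4.51 and 4.65 CPM in Git2-knockout, against 7.10, 5.93 and 7.40 CPM in wild-type (log2 fold change -0.45, SE 0.13, adjusted p = 7.69e-03). This call was lost with the length trend, the GC trend or both removed, the last at -0.06. Gstt3, at 34.7, 31.4 and 33.6 CPM in Git2-knockout and 31.1, 36.6 and 37.5 CPM in wild-type, overlapped (log2 fold change -0.08, adjusted p = 0.359). Gstt4 was not tested.

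The omega, zeta and kappa classes had smaller changes. Gsto1, an omega class enzyme that acts as a thioltransferase and dehydroascorbate reductase, was at 374, 332 and 348 CPM in the Git2-knockout libraries, against 398, 401 and 393 CPM in wild-type, and fell by 0.18 (SE 0.04, edgeR adjusted p = 2.8e-03). In TPM its groups overlapped, and its value was 0.05 with the length trend removed, so the direction was not the same on every scale. With length and GC trends removed Gsto1 was called higher at 0.10. Gsto2 was near 1 CPM in both groups and was not called (-0.07, adjusted p = 0.862). Gstk1, the kappa class enzyme of mitochondria and peroxisomes, was at 10.2, 10.02 and 11.4 CPM in Git2-knockout, against 11.5, 13.7 and 13.1 CPM in wild-type (log2 fold change -0.28, SE 0.10, adjusted p = 0.0218). It lost the call in 7 of 17 alternatives, and its value was 0.02 with the length trend removed. Gstz1, which takes part in tyrosine breakdown, was at 35.8, 34.0 and 34.3 CPM in Git2-knockout and 34.8, 37.5 and 36.8 CPM in wild-type (log2 fold change -0.07, adjusted p = 0.307).

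**Figure D4:**
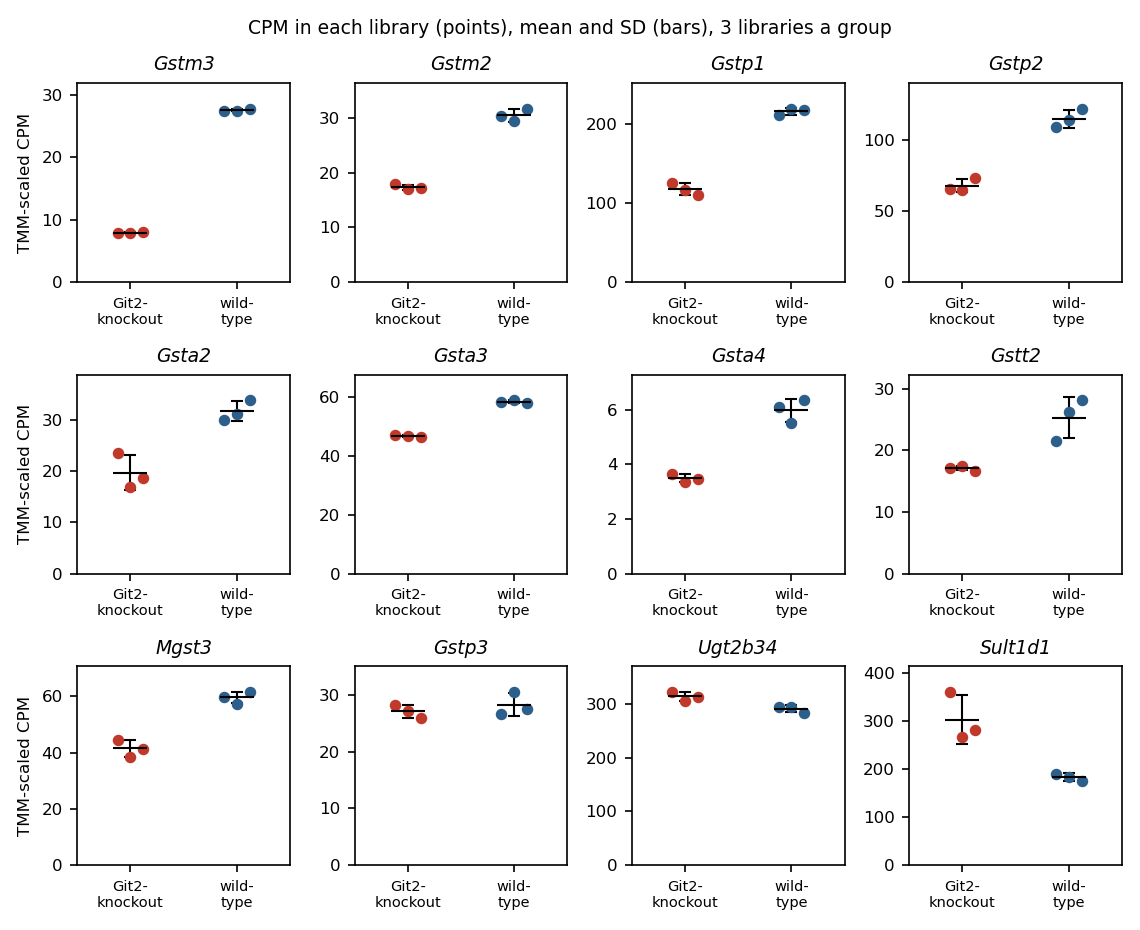
TMM-scaled CPM (linear axis from 0) of 12 transferases in each library (points) with the mean and SD of 3 libraries (black bars), Git2-knockout left of wild-type. Gstm3 lies between 7.79 and 8.07 CPM in Git2-knockout and between 27.4 and 27.7 CPM in wild-type, and the Sult1d1 points are higher in Git2-knockout, from 267 to 361 CPM, than in wild-type, from 175 to 191 CPM.

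Microsomal GSTs are membrane enzymes of another protein family, some of which also make leukotrienes or reduce lipid peroxides. Mgst3 was at 44.6, 38.6 and 41.3 CPM in the Git2-knockout libraries, against 59.8, 57.4 and 61.5 CPM in wild-type, and fell by 0.52 (SE 0.06, edgeR adjusted p = 1.57e-06). Mgst2 was at 40.4, 38.3 and 37.2 CPM in Git2-knockout, against 48.5, 46.3 and 47.2 CPM in wild-type, and fell by 0.30 (SE 0.05, adjusted p = 2.03e-04). Only the fall of Mgst3 held on every scale, as that of Mgst2 stood at 0.06 with the length trend removed. Mgst1, the most abundant of the 3, was at 181, 141 and 163 CPM in Git2-knockout and 158, 171 and 164 CPM in wild-type, with overlap (log2 fold change -0.03, adjusted p = 0.798). It was called higher at 0.26 with the length trend removed and at 0.15 with length and GC trends removed, and lower at -0.14 without Git2-knockout replicate 1.

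UGT1 enzymes come from one locus with separate first exons, and UGT1A1 is the enzyme that conjugates bilirubin. Ugt1a1 was at 134, 121 and 124 CPM in the Git2-knockout libraries, against 149, 141 and 151 CPM in wild-type, and fell by 0.22 (SE 0.05, edgeR adjusted p = 9.5e-04). Ugt1a7c was at 120.1, 131 and 132 CPM in Git2-knockout and 119, 122 and 117 CPM in wild-type, a log2 fold change of 0.10 that was not called (adjusted p = 0.0854). The whole locus summed to 278, 266 and 269 CPM in Git2-knockout and 284, 282 and 283 CPM in wild-type, and this sum was not called (-0.06, SE 0.04, adjusted p = 0.185). The fall of Ugt1a1 was not called in TPM either (-0.06, adjusted p = 0.277). For Ugt1a6b, 1 library set the value. The gene was at 12.0, 3.87 and 4.59 CPM in Git2-knockout, against 7.64, 7.32 and 6.81 CPM in wild-type, with a log2 fold change of -0.10 (SE 0.50, adjusted p = 0.889). Without Git2-knockout replicate 1 it was -0.80 and called (adjusted p = 8.78e-06). Of its stretches of 50 bases, 79.8% occur in other Ugt1a genes. Ugt1a6a (-0.18) and Ugt1a9 (0.14) were not called.

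UGT2 enzymes conjugate steroids, bile acids and fatty acids. Ugt2b34, the most abundant UGT, was at 323, 306 and 314 CPM in the Git2-knockout libraries, against 295, 295 and 284 CPM in wild-type, a small rise without overlap (log2 fold change 0.11, SE 0.04, edgeR adjusted p = 0.0291). The call was lost or turned in 11 of 17 alternatives, with a called -0.34 after removal of the GC trend and 0.27 on log2(TPM + 1). Ugt2b5 was at 44.6, 42.1 and 42.0 CPM in Git2-knockout and 45.4, 48.0 and 47.1 CPM in wild-type, lower in each library but not called (-0.13, adjusted p = 0.0507). Ugt2b35 was at 23.7, 25.2 and 22.6 CPM in Git2-knockout and 23.6, 25.3 and 22.7 CPM in wild-type, with nearly the same values in both groups. With length and GC trends removed, however, both Ugt2b35 (-0.44) and Ugt2b5 (-0.36) were called lower. Ugt2a3 was at 4.25, 4.34 and 3.77 CPM in Git2-knockout, against 5.33, 4.59 and 5.80 CPM in wild-type, and fell by 0.35 (SE 0.13, adjusted p = 0.0363), a call that was lost in 8 alternatives. Ugt2b36 (0.14) was not called, and was called lower at -0.23 with the GC trend removed.

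Sult1d1, a sulfotransferase that in mice acts on dopamine and other catecholamines, was at 361, 267 and 282 CPM in the Git2-knockout libraries, against 191, 185 and 175 CPM in wild-type, and rose by 0.73 on the log2 scale (SE 0.12, edgeR adjusted p = 4.04e-03). All Git2-knockout values lay above all wild-type values, and replicate 1, at 361 CPM, stood above the other 2. Without it the log2 fold change was 0.56 (adjusted p = 2.1e-13), and the other single-library omissions gave 0.69 to 0.80. The rise depended on the scale. Its transcript has a GC content of 33.5%, and with the GC trend removed the gene was called lower at -0.16 (adjusted p = 0.015), while with length and GC trends removed it was at -0.03 and not called (adjusted p = 0.553). Sult1b1, its neighbour on chromosome 5 with no coding gene between them and a reading frame 64.0% identical, was at 210.4, 175 and 187 CPM in Git2-knockout and 186, 181 and 168 CPM in wild-type, overlapping and not called (0.10, adjusted p = 0.19). In TPM Sult1b1 was called higher (0.26), and with length and GC trends removed it was called lower (-0.38). Sult6b2 was at 25.9, 29.7 and 25.3 CPM in Git2-knockout and 25.7, 27.0 and 29.0 CPM in wild-type, with overlap (-0.01, adjusted p = 0.89). Sult1a1 (0.08), Sult1c2 (-0.35) and Sult2b1 (-0.09) were not called, and Sult2b1 was called higher at 0.25 with length and GC trends removed.

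**Figure D5:**
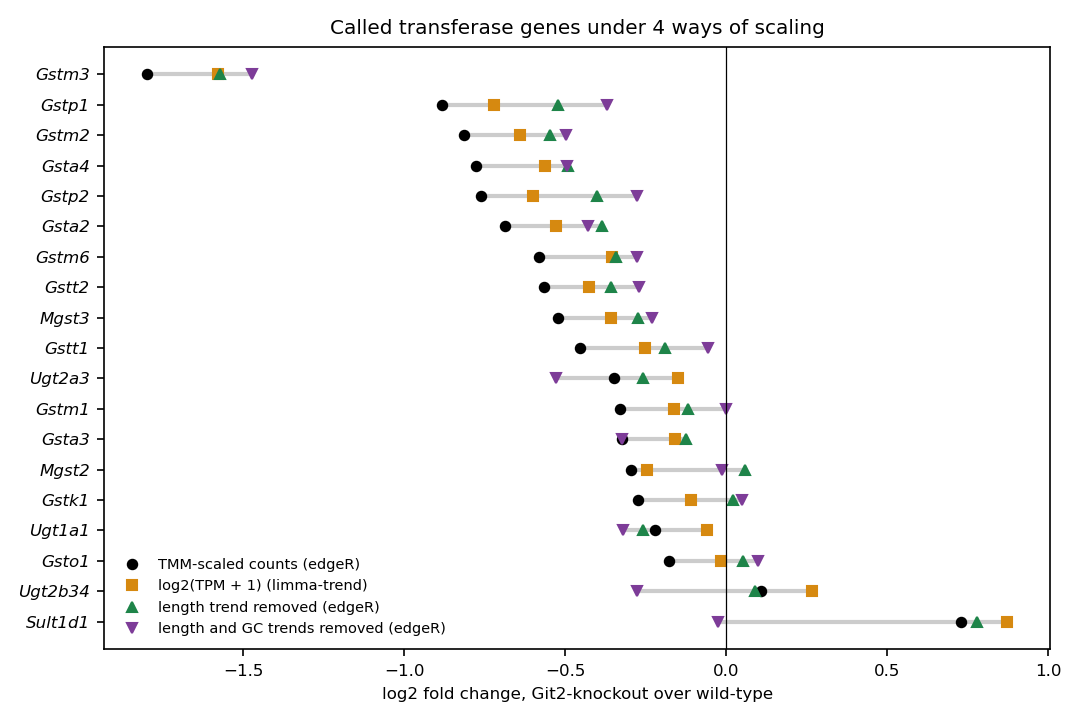
Log2 fold change (Git2-knockout over wild-type, 3 libraries per group) of the called transferases on 4 scales: TMM-scaled counts, counts with the length trend removed, counts with length and GC trends removed, and log2(TPM + 1). Gstm3 stays between -1.80 and -1.47 on all 4, whereas Sult1d1 is 0.73, 0.78, -0.03 and 0.87.

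The 9 members not tested were Gstt4, Sult4a1, Sult6b1, Ugt1a10, Ugt1a2, Ugt1a5, Ugt1a8, Ugt2a2 and Ugt2b1. Ugt1a8 had 0 to 40 estimated counts per library. The other 8 had 0 to 12, so differences in them were not detectable at this depth.

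Genes of the steps around conjugation were described by 7 lists with 116 genes tested, of which 51 fell and 25 rose (median log2 fold change -0.11). Among all genes tested, 27.4% fell and 29.6% rose, with a median of 0.02. Those shares were 13.9% and 42.4% on log2(TPM + 1), and 25.9% and 27.2% with the length trend removed. Counts of the UDP-glucuronate and PAPS lists lay near the shares of all genes, and no list was tested against them. The list of phase 1 and other phase 2 enzymes had 15 falls and 4 rises among 24 genes tested, with a median of -0.35. Cyp3a25, a drug-oxidizing cytochrome P450, was at 21.5, 19.5 and 20.0 CPM in the Git2-knockout libraries, against 43.6, 44.1 and 44.6 CPM in wild-type, and fell by 1.12 (edgeR adjusted p = 4.22e-10). Cyp2c55, a cytochrome P450 that acts on arachidonic acid, was at 0.425, 0.586 and 0.353 CPM in Git2-knockout, against 3.66, 3.85 and 4.21 CPM in wild-type (-3.08, adjusted p = 2.21e-08). Cyp2c55 had 6 to 79 estimated counts per library, and its Git2-knockout values lie near the floor. It passed the filter for testing through its wild-type libraries, the group where it is high. The size of its fall is therefore uncertain, and on log2(TPM + 1) it was -1.73. Cyp3a25 and Cyp2c55 were lower in every Git2-knockout library, and the aldehyde dehydrogenase Aldh1b1 fell too (-0.41).

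Glutathione synthesis and turnover had 11 falls and 1 rise among 20 genes, with a median of -0.18. These counts moved with the scaling, to 8 falls and 5 rises on log2(TPM + 1). With length and GC trends removed there were 7 falls and 4 rises, with a median of -0.02, where 20.9% of all genes fell and 21.8% rose. The glutathione peroxidases Gpx2 (-0.73, adjusted p = 8.67e-09) and Gpx4 (-0.37) and the brush border aminopeptidase Anpep (-0.49), which is also on the enterocyte marker list, fell. Gpx4 was at 0.15 with length and GC trends removed. UDP-glucuronate supply had 4 rises and 4 falls among 12 genes (7 rises and 1 fall on log2(TPM + 1)), with the UDP-glucose maker Ugp2 (0.40) and the glucuronide-cleaving Gusb (0.19) higher and the hexokinase Hk2 (-0.59) lower. Ugp2 was at -0.05 with the GC trend removed. PAPS supply and sulfate ester cleavage had 3 rises and 4 falls among 13 genes, with Papss2, which makes PAPS (0.37), and Bpnt2 (0.59) higher and Bpnt1 (-0.35) lower. Bpnt1 and Bpnt2 are phosphatases of the nucleotides left by sulfation. Bpnt2 was at -0.05 with length and GC trends removed.

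Efflux transporters had 5 falls and 2 rises among 13 genes, and 10 falls and 1 rise with the length trend removed. The subunits of the basolateral bile acid transporter, Slc51a (-0.68, adjusted p = 9.69e-09) and Slc51b (-1.10, adjusted p = 2.11e-07), and the conjugate exporter Abcc3 (-0.57) fell. Abcg2 (0.21) and Abcc4 (0.42) rose, but neither was called with length and GC trends removed. Abcc2 was far more abundant, with means of 1519 CPM in Git2-knockout and 1508 CPM in wild-type. It was not called (0.01), but was called lower at -0.34 with length and GC trends removed. Regulators had 10 falls and 7 rises among 26 genes, and 7 falls and 10 rises on log2(TPM + 1). PXR (Nr1i2) was at 88.7, 91.8 and 91.8 CPM in the Git2-knockout libraries, against 124, 119.9 and 123 CPM in wild-type, and fell by 0.43 (edgeR adjusted p = 4.98e-07). The intestinal homeobox factor Cdx1 (-0.72) and the nuclear receptor Esrra (-0.49) fell as well. Nfe2l2 (0.14, adjusted p = 0.0238) and Ahr (0.67, adjusted p = 5.52e-06) rose, and Keap1, which restrains Nrf2, fell (-0.33). CAR (Nr1i3) also fell (-0.24, adjusted p = 0.00597). The Nfe2l2 call was lost with DESeq2 (adjusted p = 0.123) and with length and GC trends removed (0.06, adjusted p = 0.204), and that of Nr1i3 with the length trend removed (adjusted p = 0.422), with both trends removed (0.05, adjusted p = 0.565) and on log2(TPM + 1) (-0.08, adjusted p = 0.219). The 4 regulators Nfe2l2, Ahr, Keap1 and Nr1i3 were picked after their values were seen. Among other genes on this list tied to Nrf2, Nfe2l1 (-0.19) fell, and Mafk and Mafg were not called. Cul3 (0.40) and Bach1 (0.14) rose, but were called lower with length and GC trends removed (-0.12 and -0.13). Of the relatives of the transferases outside the naming rule, 4 rose and 2 fell among 8 tested, with the prostaglandin D synthase Hpgds (0.54) and the chloride channel protein Clic4 (0.34) higher and the elongation factor subunit Eef1g (-0.38), which carries a GST-like domain, lower.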

How the data were processed

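Poly(A)-selected RNA was sequenced in 6 libraries, 3 per group, grouped by the sample titles. HISAT, Bowtie2 and RSEM and the build GRCm39 are listed in the submitters' processing notes, without versions, strand setting or annotation. The authors deposited 1 table with estimated counts per gene, of which 58.9% to 69.2% per library were not whole. The deposited FPKM, scaled by transcript length and library total per the file headers, served only to derive transcript lengths. The deposited TPM sum to 1000000 per library and were used for levels between genes.

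Estimated counts were rounded and tested in R 4.3.3 with edgeR 4.0.16 (robust glmQLFit and glmQLFTest, two-sided, TMM, filterByExpr, no covariates), with Benjamini-Hochberg adjustment over 13558 genes and a threshold of 0.05. Standard errors were taken as the size of the log2 fold change over the root of F. Steps were checked on simulated data. The precision of a value is set by 3 libraries per group, with 16284414 to 19106581 counts each.

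The 17 alternatives were RLE scaling, library totals, no filter, at least 5 CPM in 3 libraries, a replicate block, leaving out each library, loess removal (span 0.5) of length, GC or both trends, DESeq2 1.42.0, limma-trend (limma 3.58.1) on log2(TPM + 1), and, added after seeing the data, summed counts of members that share over 30% of 50-base stretches. Lengths were those implied by counts and FPKM of at least 0.5 (93.1% of tested genes), and GC came from GENCODE transcripts of GRCm38 (97.9%). All 49 members matched the RefSeq gene table, used only for chromosome and gene order, and 45 matched its promoter windows.

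Members, lists and tests were chosen with earlier results of these data known. By rule, values in every library are given per class for up to 3 tested members with the highest mean TPM and up to 4 called members without overlap with the largest change, and from each pathway list up to 3 called genes with the smallest p. Further genes of the regulator and efflux lists were named after their values were seen.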

Additional observations from a re-analysis of the deposited data

How the results depend on the processing

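Members rising numbered 2 and became 1 with RLE scaling, no filter, the replicate block and DESeq2, 0 with the GC trend removed, 5 on log2(TPM + 1), 6 without the length trend and 7 without both trends. The 17 falling members became 11 with the length trend removed, 27.5% of members where 25.9% of all genes fell, and stayed between 13 and 24 under the other alternatives. Over all genes, 3712 falls became 1890 on log2(TPM + 1), with 5749 rises, and the 25 rises of the pathway lists became 41. Groups did not overlap in 8 members upward and 12 downward in deposited TPM, against 3 and 21 in CPM. Class sums in CPM had ratios of 0.751 for soluble GSTs, 0.890 for MGSTs and 1.01 for UGTs. The cause of these shifts was not tested. Leaving out 1 library gave 1 to 3 members rising and 15 to 20 falling, 3430 to 4082 genes rising and 3150 to 4261 falling, 21 to 25 list genes rising and 45 to 55 falling, and 3 to 4 members higher and 21 to 24 lower without overlap. The ratios of summed TPM then ran from 0.914 to 0.948 for all transferases, 0.793 to 0.810 for soluble GSTs, 0.947 to 1.019 for MGSTs, 1.114 to 1.134 for UGTs and 1.368 to 1.489 for SULTs.

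The sign of members' values turned in 13 with the length trend removed, 10 with the GC trend removed, 18 with both removed, 12 on log2(TPM + 1) and 0 to 3 under each other alternative. Those called before or after the turn, and 3 list genes, were as follows. With the length trend removed, Gstk1 was at 0.020, Gstm5 at 0.21, Gsto1 at 0.051, Gstp3 at 0.30, Mgst1 at 0.26 and Mgst2 at 0.059. Removing length and GC trends gave 0.048 for Gstk1, 0.16 for Gstm4, 0.22 for Gstm5, 0.10 for Gsto1, 0.44 for Gstp3, 0.15 for Gstt3, 0.15 for Mgst1, 0.15 for Gpx4, -0.38 for Sult1b1, -0.027 for Sult1d1, 0.25 for Sult2b1, -0.28 for Ugt2b34 and -0.054 for Bpnt2. The GC trend alone gave -0.50 for Sult1b1, -0.16 for Sult1d1, -0.34 for Ugt2b34, -0.23 for Ugt2b36 and -0.051 for Ugp2. On log2(TPM + 1) no turned member was called.

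With the replicate number as a block, 1 member rose and 16 fell. Deviations from group means correlated at 0.04, -0.00 and 0.05 for libraries of the same number and at -0.07 to 0.03 for the others, so the numbers were not taken to pair the libraries.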
